A study of Mus musculus with 3 samples.

Results

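The genes described here encode 7 receptors and surface proteins by which blood stem and progenitor cells are recognised or receive signals: Kit, Flt3, Cd34, Procr, Cd27, Slamf1 and Csf2rb. They were taken by name from the 21911 protein-coding genes of the annotation, not by a threshold on a measured value. Kit is the receptor for stem cell factor and Flt3 the receptor for Flt3 ligand, and both are tyrosine kinases. Cd34 is a sialomucin of progenitor and endothelial cells, Procr the endothelial protein C receptor, Cd27 a receptor of the tumour necrosis factor family, Slamf1 the founding member of the SLAM family, and Csf2rb the common beta chain through which interleukin 3, interleukin 5 and GM-CSF signal.

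In the embryo the liver is the main site of blood formation at mid-gestation, where stem cells expand and most cells are red cell precursors. Stem cells of the fetal liver carry Kit, Procr and Slamf1. Flt3 and Cd27 mark multipotent and lymphoid-primed progenitors, and Csf2rb is used mainly by myeloid cells. Kit stays on the surface of early erythroid progenitors and is lost as they mature, and its transcription is known to be driven by enhancers far upstream and within the gene that bind GATA and other blood factors.

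DNase-seq reads out open chromatin as the places where the enzyme DNase I cuts nuclear DNA. It was applied to whole liver of mouse embryos aged 13.5 days, labelled as C57BL/6N,129 mice with a deletion of HS2 and HS3 and a HOM globin mutation (HOM is commonly short for homozygous). HS2 and HS3 are names used for enhancers of the β-globin locus, and the labels say no more of the allele. All 3 biological replicates carry the mutation, no liver without it was analysed here, and no test between groups could be made, so the spread between replicates is the only measure of error. Whether each replicate is 1 liver or a pool is not given in the sources used here.

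A replicate had a shorter and a longer peak list, footprints (short stretches protected from cutting inside open chromatin) and bases to which the authors gave a false discovery rate (FDR) of the cut density under 0.05. Replicates 1, 2 and 3 had 28209, 57314 and 41319 peaks in the shorter list. If the smallest step of the signal is 1 cut, the depths were 79.4, 119.5 and 132.7 M cuts. Peaks of the shorter list are used unless the longer one is named. The signal is the highest cut density in a peak, normalised to depth by the authors, so 0 means no listed peak rather than no cutting. Fewer cells with an open site and less cutting per cell cannot be told apart in whole tissue. A gene's promoter counts as open if at least 1 of its annotated starts had a peak no more than 500 bp away.

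The tissue was described with lists of marker genes. These were chosen with earlier results of these data known, so they are no independent check. By the same rule 50.9% of all protein-coding genes were open in all 3 replicates. All 8 erythroid promoters were open in all 3 replicates, with a summed signal of 35.9, 59.7 and 35.0 in replicates 1, 2 and 3. None of 8 hepatoblast promoters was open in all 3, and their summed signal was 0.731, 4.31 and 1.45. Foxa3 and Ttr were open in 2 replicates and Hnf4a and Apoa1 in 1, while Alb and Afp were at 0. Alb and Afp encode the major plasma proteins of fetal liver cells, and the longer list held an Afp peak of 0.731 in replicate 1 and 1.19 in replicate 2, and an Alb peak of 0.399 in replicate 3. None of 8 endothelial promoters (0 to 1.59 summed) and none of 6 macrophage promoters (0 to 2.28 summed) was open in all 3. By the longer list 1 promoter of each of these 3 lists was open in all 3 replicates, against 55.7% of all genes. They were hepatoblast Ttr (0.490 to 0.954), endothelial Kdr (0.603 to 0.844) and macrophage Vcam1 (0.467 to 0.837). The Ttr peak also reached the start of Gm16090. None of 6 mast cell promoters was open in any replicate; mast cells are another blood lineage that carries Kit. Of 6 megakaryocyte promoters 2 were open in all 3, Itga2b and Vwf, and of 6 T and NK cell promoters 1 was, Lck. Replicate 2 had the highest summed signal for every marker list except that of mast cells, which had no signal. The part of this in the results below was not tested.

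Of the 7 receptor promoters, 1 was open in all 3 replicates, that of Kit, against 50.9% of all protein-coding genes. Open in 2 or 3 replicates were 3 of the 7, Kit, Flt3 and Cd34, against 54.7% of all genes. Replicate 1 had 1 of the 7 open, with 51.4% of all genes, replicate 2 had 3, with 57.5%, and replicate 3 had the same 3, with 55.5%. Without replicate 1, the count open in all remaining replicates was 3, with 54.3% of all genes. Procr, Cd27, Slamf1 and Csf2rb had no promoter peak in either list of any replicate. The 7 genes thus ranged from 1 promoter with a peak of moderate height, through 2 with low peaks in some lists, to 4 with none.

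**Figure D1:**
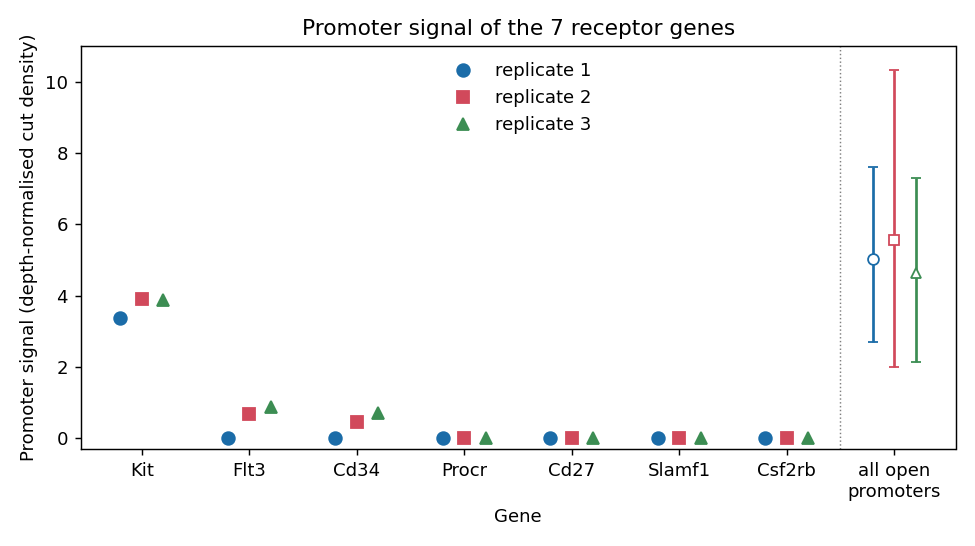
Promoter signal (depth-normalised cut density, linear axis) of the 7 genes in each replicate, with 0 where the shorter list held no peak; at the right, open symbols and bars give the median and quartiles over all open promoters of that replicate. Kit stands at 3.39 to 3.90 in all 3 replicates, Flt3 and Cd34 stand below 1 in replicates 2 and 3, and the other 4 genes are at 0.

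Kit (ENSMUSG00000005672.12) lies on the plus strand at chr5:75574916-75656722 of mm10, the build of all coordinates here. Its promoter signal was 3.39, 3.90 and 3.87 in replicates 1, 2 and 3, so that the mean was 3.72 ± 0.287 (SD, n = 3). Among open promoters this was below the middle, since 32.4%, 38.5% and 42.2% of them had a lower signal in replicates 1, 2 and 3. The medians of open promoters were 5.03, 5.56 and 4.64. Within 500 bp of the first start, 785, 874 and 870 bases passed the FDR limit in replicates 1, 2 and 3, and the lowest FDR was 3.38e-21, 6.29e-37 and 9.38e-29.

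A footprint at the Kit start overlapped in all 3 replicates, and together the 3 covered chr5:75574900-75574920. It touched a match to the KLF motif CCNCNCCC, the kind of GC-rich box bound by KLF and Sp factors, which 54.6% of all promoters held in the 250 bases before and 50 after the start. The 120 bases up to the first Kit start are shown because this is the only one of the 7 promoters open in all replicates; they are the plus strand at chr5:75574796-75574915, with the KLF matches in capitals.
Kit promoter: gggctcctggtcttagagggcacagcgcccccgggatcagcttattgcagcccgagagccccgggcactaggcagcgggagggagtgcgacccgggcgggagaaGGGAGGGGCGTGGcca

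A second Kit peak lay 0.905 kb downstream of the start, at 1.17, 1.19 and 1.15 in replicates 1, 2 and 3. It belongs to neither the promoter window nor the distal regions defined next. Replicate 2 had a further peak of 0.628 at 0.272 kb upstream, which the others lacked and which was not in its own longer list. The promoter peak of Kit was thus the tallest of the locus in every replicate.

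Peaks of the replicates that shared at least 1 bp were joined into regions, and a region with a peak in all 3 is called common. Regions over 1 kb from any annotated start are called distal, and those in a gene or within 150 kb of it were counted for it, which gives nearness and not a target. The 7 genes had 31 common distal regions, with a median of 5 per gene, against a median of 2 over all protein-coding genes. Without replicate 1 the numbers were 43 regions for the 7 genes and a median of 4 over all genes. At least 1 was found for each of the 7, as for 70.2% of all genes. At least as many as the 4 of Kit were found for 5 of the 7, against 25.7% of all genes. The 5 include Kit, which meets this limit by definition because it is its own count. Csf2rb and Procr had 7 each, Flt3 and Cd27 5, Cd34 2 and Slamf1 1. Of the 31, 4 lay inside the gene they were counted for, 2 in Kit and 2 in Flt3, while 11 lay in another protein-coding gene. This split was not counted over all genes. Kit and Flt3 are also the longest of the 7, with windows of 381.8 and 369.7 kb, against 304.4 kb for Procr and Cd27.

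Many distal regions were seen in 1 replicate only. Over the 7 genes, 87 distal regions were seen in any replicate, of which 14 were in 2 replicates and 42 in 1. Of those 42, replicate 2 alone held 36, replicate 1 held 2 and replicate 3 held 4. Each of the 7 genes had its highest number of distal regions in replicate 2, for example 17 for Csf2rb, against 7 in replicate 1 and 9 in replicate 3. Replicate 2 also had the most peaks genome-wide. Of all 61155 regions, distal or not, 24196 were in all 3 replicates. The share seen in 1 replicate was not counted over all distal regions, so these counts are no trait of the 7 genes. They are of the shorter list, and some of the 36 had a peak in the longer list of replicate 3.

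**Figure D2:**
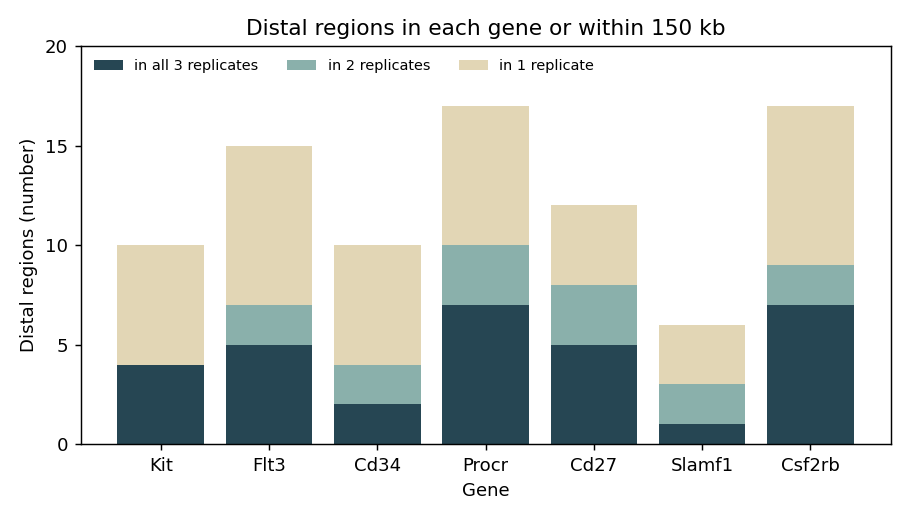
Number of distal regions in each gene or within 150 kb of it, split by the number of replicates with a peak there. Procr and Csf2rb had 17 each and Slamf1 had 6, of which 7, 7 and 1 were common to all 3 replicates.

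The 4 common distal regions of Kit were 1 far upstream, 2 in introns and 1 beyond the gene's end, and none lay in another protein-coding gene. The upstream region, at chr5:75460421-75460800, was 114.3 kb before the start, in no protein-coding gene, with the nearest annotated start 61049 bp away. Its signal was 1.22, 2.38 and 0.882 in replicates 1, 2 and 3, a mean of 1.5 ± 0.79 (SD, n = 3), and replicate 2 was the high one. All 380 of its bases passed the FDR limit in every replicate, with a lowest FDR of 5.62e-05, 6.91e-48 and 1.10e-05. The listed peaks of replicates 2 and 3 did not overlap each other, and the peak of replicate 1 joined them. Without replicate 1 it is therefore no common region, and Kit has 3.

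In the upstream region of Kit a footprint overlapped in all 3 replicates over chr5:75460674-75460699, and in replicate 3 it lay outside the listed peak. It touched a match to the RUNX motif TGCGGT, RUNX1 being a factor that stem cells need to form, and a GATA match, GATAA, stood just beside it. This stretch is shown because it is the only upstream site of Kit common to the replicates; it is the plus strand at chr5:75460644-75460729, with the RUNX match and then the GATA match in capitals, both on the minus strand.
Kit upstream: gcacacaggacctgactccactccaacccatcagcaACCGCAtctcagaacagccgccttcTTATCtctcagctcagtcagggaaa

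Both intronic regions of Kit were weak and alike between replicates. The first, at chr5:75607938-75608360, lay 33.2 kb downstream of the start in intron 2 of a transcript with 21 exons, and 2214 bp from another annotated Kit start. Its signal was 0.983, 1.11 and 0.836 in replicates 1, 2 and 3, a mean of 0.977 ± 0.138 (SD, n = 3). No footprint there overlapped in all 3 replicates, and the sequence held a pair of CTG and GATAA separated by 6 to 9 bases, the composite bound by TAL1 and GATA1 in red cell precursors. A RUNX match, TGTGGT, overlaps that pair. The second, at chr5:75624282-75624580 and 49.5 kb downstream in intron 7, had 0.895, 1.16 and 0.768, a mean of 0.942 ± 0.202 (SD, n = 3). Its footprint at chr5:75624391-75624403 overlapped in all 3 replicates and touched none of the motifs searched.

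The intronic stretches are shown as the only common distal sites inside Kit. The first is the plus strand at chr5:75608054-75608130 with the whole pair, gap included, in capitals, and the second at chr5:75624361-75624433 has the shared footprint in capitals.
Kit intron, first site: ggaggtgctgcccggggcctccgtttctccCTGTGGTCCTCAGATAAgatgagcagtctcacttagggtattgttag
Kit intron, second site: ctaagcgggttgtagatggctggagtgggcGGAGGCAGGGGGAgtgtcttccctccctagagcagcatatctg

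The fourth region, at chr5:75761956-75762381, lay 187.3 kb downstream of the Kit start and outside any protein-coding gene. Its signal was 1.03, 2.20 and 1.02 in replicates 1, 2 and 3 (1.42 ± 0.679, SD, n = 3). All 4 distal regions of Kit were below the median of all common distal regions in replicate 1 (1.59) and in replicate 3 (1.68). In replicate 2 the upstream and the downstream regions were above that median (1.95) and the intronic ones below it. A GATA match was found in 3 of the 4 and a RUNX match in 3 of the 4. In the shorter list, replicate 2 alone had 6 more distal peaks at Kit. Of these, 3 lay between 123.1 and 124.2 kb upstream at 0.410 to 0.979, and 2 beyond the gene at 0.510 and 0.594. The other 1 lay in the gene at 0.402 and was not in the longer list of replicate 2. The longer list of replicate 3 also held peaks at 124.2 and 123.1 kb upstream, at 0.573 and 0.588. It held further ones at the site in the gene, at 0.467, and 155.9 kb downstream, at 0.377.

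Sites known from other work to bind GATA factors in red cell precursors lie about 114 kb upstream and 5, 58 and 73 kb downstream of the Kit start. The first of these distances is that of the upstream region above. Within 1 kb of the other 3 positions no replicate had a listed base, apart from 87 bases in replicate 2 at 5 kb, with a lowest FDR of 0.0227. Between the upstream region and the promoter, 113.8 kb held no peak of the shorter list in any replicate, and the longer list held 0, 1 and 3 peaks in replicates 1, 2 and 3.

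**Figure D3:**
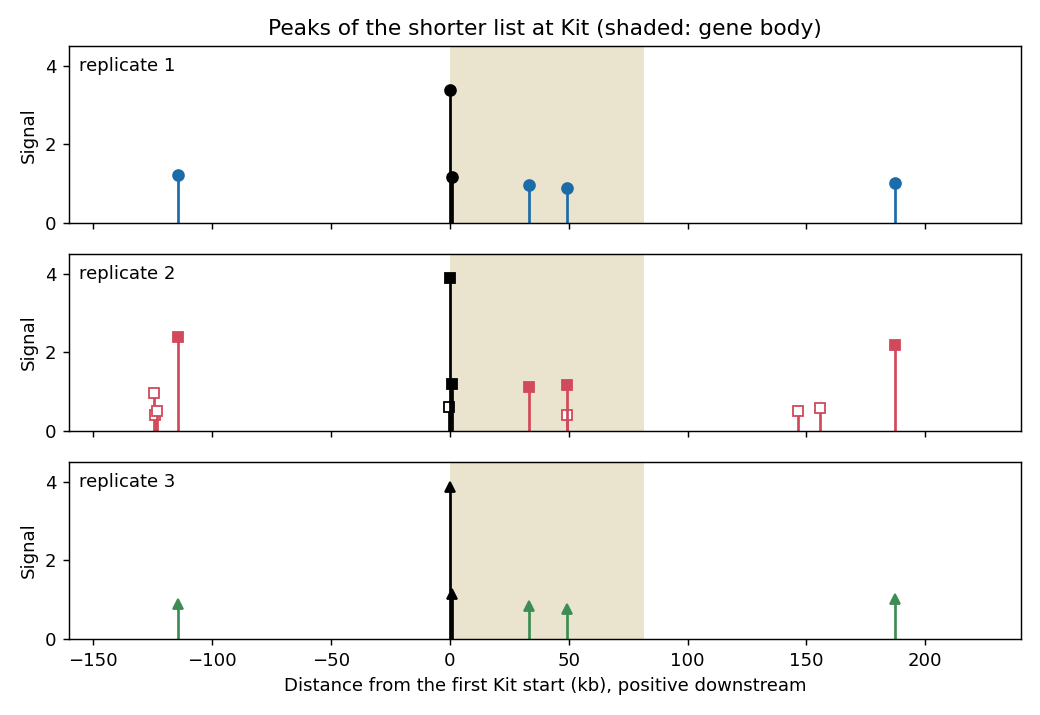
Every shorter-list peak from 150 kb before to 150 kb beyond Kit in each replicate, as signal (linear axis) against distance from the first start; black marks peaks within 1 kb of a start, filled coloured symbols distal regions common to all 3 replicates, open symbols peaks of 1 replicate, and shading the gene. Each peak is drawn at the midpoint of its joined region, so a common region has the same position in every panel. The 4 common distal regions have a peak in each panel by definition. In the upstream one the listed peaks of replicates 2 and 3 did not overlap. The open symbols are all in replicate 2.

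By the height of its promoter peak in the 3 replicates, Kit was most like Trpv2, a cation channel, Map3k6, a stress kinase, and Crip1, a LIM domain protein. Their summed absolute log2 differences from Kit were 0.0778, 0.0979 and 0.0991 over the 3 replicates, the smallest among 3634 other genes open in all 3 replicates with at least as many common distal regions. This is a likeness of peak height alone.

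Flt3 (ENSMUSG00000042817.15, minus strand, chr5:147330741-147400489) had a promoter signal of 0, 0.694 and 0.882 in replicates 1, 2 and 3. In the longer list replicate 1 had 0.655 there, so the promoter was open in all 3 replicates by that list, as were those of 55.7% of all genes. Only 8.54% of open promoters in replicate 2 and 9.44% in replicate 3 were lower. The FDR limit was passed by 83, 366 and 256 bases in replicates 1, 2 and 3. The same peak also reached the start of Gm26597, and the file cannot assign it to 1 of the 2.

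Flt3 had 5 common distal regions, all on its 3′ side or within it, and each was taller than the promoter peak in all replicates with 1 exception. None of the 5 remained among the upper 50% of peaks in all 3 replicates. The limit was each replicate's own median signal, 2.10, 1.06 and 1.37 in replicates 1, 2 and 3. All 5 were below it in replicate 1, but in replicates 2 and 3 only the region at 42.7 kb was. Beyond the 3′ end, the region 172.9 kb downstream of the start had 1.59, 1.55 and 2.18 in replicates 1, 2 and 3 (1.77 ± 0.357, SD, n = 3). The one at 107.2 kb had 1.81, 2.34 and 2.61 (2.25 ± 0.404), and that at 76.8 kb had 1.88, 1.92 and 2.32 (2.04 ± 0.245). These 3 lay in no protein-coding gene. In the gene, the region at 68.8 kb, in intron 23 of a transcript with 24 exons, had 1.98, 1.70 and 1.96 (1.88 ± 0.156). The region at 42.7 kb, in intron 10, had 1.32, 0.862 and 0.882 (1.02 ± 0.261), and in replicate 3 it equalled the promoter peak.

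The Flt3 regions shared a sequence feature. CTCF, a zinc finger protein that folds chromatin into loops and marks domain borders, binds a long motif whose 12-letter core was found in 2 of the 5. With 1 mismatch allowed it was found in all 5, against 48.0% of all common distal regions, and a shared footprint touched it in each. The relaxed search was added after the values were seen. The 3 stretches printed next are examples from these 5, and their core was touched by a footprint in every replicate. At 76.8 kb that footprint was 31 to 35 bp wide and at 68.8 kb 28 to 29 bp. At 107.2 kb it was 29 bp in replicate 2 and 24 bp in replicate 3, whereas replicate 1 had separate footprints of 9 and 10 bp. They are the plus strand at chr5:147293269-147293357, chr5:147323643-147323737 and chr5:147331691-147331779, with the core in capitals and, in the third, with 1 mismatch.
Flt3 flank: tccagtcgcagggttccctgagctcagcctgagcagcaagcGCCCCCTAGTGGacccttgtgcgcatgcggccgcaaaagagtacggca
Flt3 downstream: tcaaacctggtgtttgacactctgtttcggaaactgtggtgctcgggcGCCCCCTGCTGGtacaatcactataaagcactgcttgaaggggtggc
Flt3 intron: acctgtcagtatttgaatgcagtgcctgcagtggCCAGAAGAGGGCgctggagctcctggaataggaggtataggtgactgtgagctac

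Closer to the Flt3 start, replicates 2 and 3 had a distal region 11.9 kb into the gene, at 1.26 and 0.784, and the longer list gave 0.668 there in replicate 1. A peak 2.24 kb upstream was in replicate 2 alone, at 1.04, with 0.844 in the longer list of replicate 3.

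Cd34 (ENSMUSG00000016494.9, plus strand, chr1:194938819-194961279) had a promoter signal of 0 in replicate 1, 0.460 in replicate 2 and 0.716 in replicate 3, and the longer list added nothing. Only 3.25% and 6.23% of open promoters in replicates 2 and 3 were lower. No base of the window passed the FDR limit in replicate 1, against 271 in replicate 2 and 297 in replicate 3. The 2 common distal regions were both upstream. The one 59.0 kb away, at chr1:194879681-194879860 and 21024 bp from the nearest start of any gene, had 3.48, 4.64 and 4.01 in replicates 1, 2 and 3 (4.04 ± 0.584, SD, n = 3). The one 121.7 kb away had 1.37, 1.70 and 1.59 (1.55 ± 0.166). Regions in replicates 2 and 3 alone lay 23.6 kb downstream of the start, at 0.778 and 0.663, and 123.0 kb upstream, at 1.18 and 0.708, so that Cd34 has 4 common regions without replicate 1.

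The taller Cd34 region is shown because it had the highest signal among the distal regions of Kit, Flt3 and Cd34; it held the CTCF core with 1 mismatch, here in capitals on the plus strand of chr1:194879697-194879784.
Cd34 upstream: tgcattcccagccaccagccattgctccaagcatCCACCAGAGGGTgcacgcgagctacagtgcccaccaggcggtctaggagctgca

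Procr (ENSMUSG00000027611.12, plus strand, chr2:155751117-155755471) had no promoter peak and no base under the FDR limit at its start in any replicate. Its 7 common distal regions included the tallest ones of the 7 genes, but all were over 50 kb from its start, among many other genes. The region 137.5 kb upstream, in an exon of Myh7b, a myosin heavy chain gene, had 7.12, 11.6 and 6.95 in replicates 1, 2 and 3 (8.57 ± 2.66, SD, n = 3), with replicate 2 high. Another in Myh7b, 131.1 kb upstream, had 6.14, 7.38 and 5.87 (6.46 ± 0.806). The region 146.0 kb upstream, in no protein-coding gene, had 3.96, 5.54 and 3.39 (4.30 ± 1.11). Nearer to Procr, a region 4.82 kb downstream of the start was in replicates 2 and 3 alone, at 0.879 and 0.927.

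Cd27 (ENSMUSG00000030336.14, minus strand, chr6:125232622-125237010) likewise had no promoter peak and no listed base at its start. The region 34.8 kb upstream, in no protein-coding gene, had 1.64, 3.05 and 2.03 in replicates 1, 2 and 3 (2.24 ± 0.726, SD, n = 3). At 132.6 kb downstream, in Chd4, a chromatin remodeller, the values were 2.15, 3.18 and 1.99 (2.44 ± 0.645), and the sequence held the CTG and GATAA pair. At 147.1 kb downstream they were 1.71, 3.91 and 1.69 (2.44 ± 1.27). Replicate 2 was the highest in these 3 regions.

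Slamf1 (ENSMUSG00000015316.11, plus strand, chr1:171767127-171801184) had the fewest sites of the 7. Its promoter had no peak, and the FDR limit was passed by 0, 0 and 10 bases in replicates 1, 2 and 3, with a lowest FDR of 0.0485. Its 1 common distal region, 123.3 kb upstream in the related gene Slamf7, had 1.23, 0.920 and 0.799 (0.985 ± 0.225, SD, n = 3). A region 21.7 kb into Slamf1 was in replicates 2 and 3, at 0.594 and 0.716, and the longer list gave 0.580 in replicate 1. A region 67.9 kb upstream had 0.828 and 0.761 in replicates 2 and 3, and 0.630 in the longer list of replicate 1. Without replicate 1, Slamf1 therefore has 3 common regions.

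Csf2rb (ENSMUSG00000071713.6, plus strand, chr15:78325752-78353847) had no promoter peak and no listed base at its start. Of the 32-base words around that start, 80.9% occur once in the genome, against 100% for the other 6 genes, so reads of the rest could have been shared with a copy such as its paralog Csf2rb2. The start of Csf2rb2 had no peak either, with 84.8% of its words occurring once. A common distal region lay 4.74 kb upstream of the first start of Csf2rb, the shortest such distance among the 31, at chr15:78320929-78321093, with 1.18, 1.01 and 1.13 in replicates 1, 2 and 3 (1.11 ± 0.0879, SD, n = 3). The tallest were the pair 122.1 kb and 122.7 kb downstream in Tmprss6, a regulator of iron uptake, at 4.55, 5.38 and 6.35 (5.43 ± 0.902) and at 3.30, 5.13 and 4.41 (4.28 ± 0.921). The third was 97.0 kb downstream, at 4.01, 3.86 and 3.56 (3.81 ± 0.230). Replicates 2 and 3 alone had a region in the neighbouring Ncf4, 68.1 kb upstream, at 1.79 and 1.40, and the longer list gave 1.42 there in replicate 1.

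The site next to Csf2rb is shown because it is the common distal site closest to the first start of its gene; it is the plus strand at chr15:78320966-78321062, and the CTCF core is in capitals.
Csf2rb upstream: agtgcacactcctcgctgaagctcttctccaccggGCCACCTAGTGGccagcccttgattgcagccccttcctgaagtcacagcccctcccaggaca

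Across the 31 common distal regions, motifs were looked for on both strands in the central 200 bp, and their shares are given beside those of all 8810 common distal regions. GATAA was in 11 of the 31 (35.5%), against 26.6% of all. The RUNX motif (TGTGGT or TGCGGT) was in 8 (25.8%), against 20.1%, and the ETS motif GGAAGT in 6 (19.4%), against 13.8%. The CTG and GATAA pair, which includes a GATAA, was in 4 (12.9%), against 7.39%. The KLF motif CCNCNCCC was in 9 (29.0%), against 30.02%, and the E-box CANNTG in 21 (67.7%), against 68.5%. The NF-E2 and AP-1 motif TGANTCA was in 2 (6.45%), against 6.80%, and the STAT motif TTCNNNGAA in 3 (9.68%), against 5.60%. The CTCF core was in 9 (29.0%), against 20.7%, and in 16 (51.6%) with 1 mismatch, against 48.0%.

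The genes differed in which motifs their regions held. With 1 mismatch allowed, the CTCF core was in 0 of 4 regions of Kit, 5 of 5 of Flt3, 1 of 2 of Cd34, 4 of 7 of Procr, 1 of 5 of Cd27, 0 of 1 of Slamf1 and 5 of 7 of Csf2rb. GATAA was in 3 of 4 regions of Kit and in 0 of 5 of Flt3. These are matches of letters in few regions, and no test was made of the difference.

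**Figure D4:**
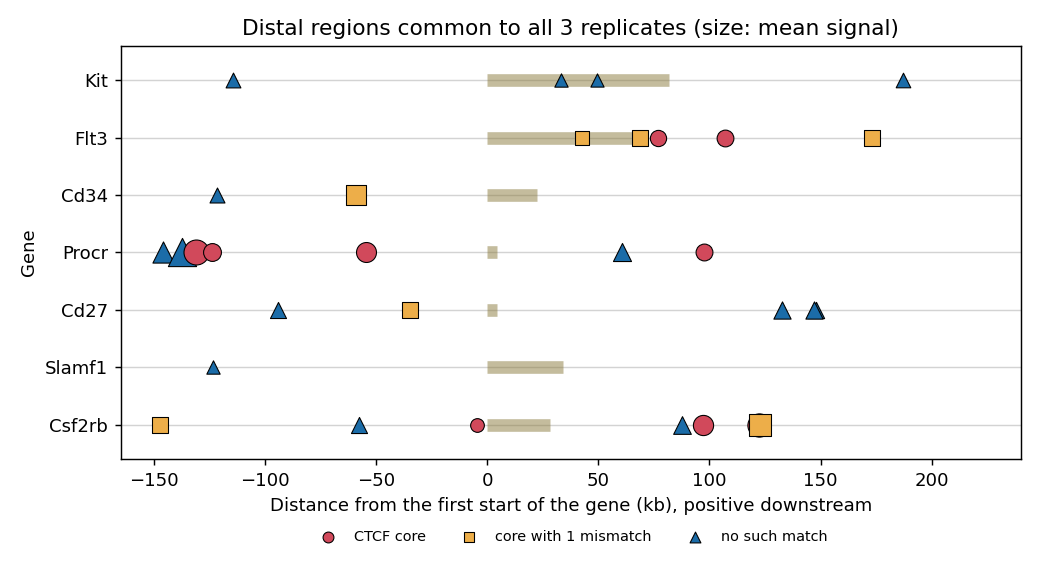
Position of the 31 common distal regions relative to the first start of each gene (kb, positive downstream), with gene bodies as bars, symbol size following mean signal, and symbol shape giving the CTCF core, the core with 1 mismatch, or neither. Kit has only triangles (neither) and Flt3 none; at Procr, Cd27 and Csf2rb neighbouring symbols overlap, and at Csf2rb the circle at 122.1 kb lies behind the square at 122.7 kb.

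Footprints at Kit and at Flt3 differed in width. Over the 3 replicates, the common distal regions of Kit and of Flt3 each held 43 footprints. Those of Kit had a median width of 9 bp and 1 of them was 20 bp or wider, whereas those of Flt3 had a median of 13 bp and 15 were that wide. A site with a footprint in more than 1 replicate is counted more than once here. Most of the wide footprints at Flt3 were such repeats at the same CTCF core matches, with 1 mismatch allowed. Over all 7 genes 74 of 327 footprints were 20 bp or wider, with a median of 10 bp, against 22.7% and a median of 10 bp over all common distal regions. The widest, 50 bp, was at Procr. A footprint overlapping in all 3 replicates was present in 27 of the 31 regions, against 82.6% of all common distal regions, and in 2 of 4 at Kit and 5 of 5 at Flt3.

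The promoters also differed in base composition. The ratio of observed to expected CpG within 500 bp of the first start, whose median over all genes was 0.552, was 0.675 at Kit and 0.719 at Flt3. Of all genes in the decile of that ratio holding both, 79.7% were open in all 3 replicates. Cd34 and Procr had 0.485 and 0.486, in a decile with 48.4% open. Cd27, at 0.181, was in a decile with 13.4% open, and Slamf1 and Csf2rb, at 0.151 and 0.119, in one with 8.67%. The part of CpG content in the order of the 7 promoters was not tested.

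A wider list of 27 receptors, ligands and surface proteins of blood progenitors, chosen with earlier results of these data known, had 10 promoters open in all 3 replicates, against the same 50.9% of all genes, and a median of 3 common distal regions. The tallest were Fcgr3, an Fc receptor of myeloid cells, at 15.6, 16.4 and 17.6 in replicates 1, 2 and 3 (16.5 ± 0.979, SD, n = 3), and Epor, the erythropoietin receptor, at 8.19, 13.5 and 8.39 (10.03 ± 3.01). The integrin genes Itga4, at 9.06, 11.6 and 9.20 (9.97 ± 1.46), and Itga2b, at 7.89, 10.7 and 7.13 (8.59 ± 1.90), came next. Each of these 4 was above Kit in every replicate.

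Among the ligands, Kitl, which encodes stem cell factor, was open at 1.08, 1.10 and 0.882 (1.02 ± 0.120, SD, n = 3), and Flt3l at 5.12, 6.48 and 5.07 (5.55 ± 0.799), though the peak of Flt3l also reached the start of Gm45713. Thpo, the thrombopoietin gene, had no peak in the shorter list and 0.694 in the longer list of replicate 2. Flt3l was thus above Flt3 in every replicate, while Kitl was below Kit. The partner subunits Csf2ra and Il3ra, which pair with Csf2rb at the cell surface, were open at means of 4.03 and 2.75, whereas Csf2rb and Csf2rb2 were at 0. The Slamf1 relatives Cd244a and Cd48 had no peak in the shorter list, and Cd48 had 0.218 in the longer list of replicate 2.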

How the data were processed

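DNase-seq of 3 replicates of 1 group was analysed from the files the authors deposited for each replicate: 2 peak lists, footprints and FDR stretches on mm10, made per sample. The sources used here do not name the aligner or the callers; they are not given in the labels or notes. Peak signal values are, per the deposited notes, the highest read-depth-normalised cut density. The q-value of the deposited footprints is 0.01 in each entry, so they were not ranked, and every deposited FDR value was under 0.05. Signal values below 2 were whole multiples of a step of 0.0126, 0.00837 and 0.00753 in replicates 1, 2 and 3, within 0.02 steps for 100% of them, which gave the implied depths. No file used here states the depth.

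Gene starts came from GENCODE M21 and sequences from the GRCm38 assembly in RefSeq. Promoter signal is that of the tallest peak within 500 bp of a start. Joins and counts were made with Python 3.11.15, numpy 2.4.6 and pandas 2.3.3 and were checked on simulated peaks. The gene record's 5′ end served for distances, CpG ratio and word uniqueness.

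The members and lists were chosen with earlier results of these data known. The genes named were every member, the 4 wider-list genes with the highest mean signal, the ligands, Csf2rb2, Cd48, Cd244a, the 3 genes most like Kit, and genes that hold or adjoin a described region. Csf2ra, Il3ra and the marker genes outside this rule were named after their values were seen, and the CTCF search with 1 mismatch was likewise added then. The positions 5, 58 and 73 kb into Kit are from general knowledge of the gene. All distal regions are described for Kit, and up to 3 of the highest for the others with further ones added after their values were seen. The CTCF core has 12 letters. Replicates may share conditions that the labels do not give.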

Additional observations from a re-analysis of the deposited data

How the results depend on the processing

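Weak sites such as the Flt3 and Cd34 promoters were listed in some replicates only, and the part of depth and list length in this was not tested. The open promoters numbered 1 of 7 with the shorter list and 2 with the longer list, where Flt3 joined Kit (55.7% of all genes). Leaving out 1 replicate gave 1 to 3, and the 3 (Kit, Flt3 and Cd34) came without replicate 1. The count was 1 with the upper 50% of peaks (41.8% of all genes), a window of 1000 bp (51.9%) and 1 start per gene (45.99%). The common distal regions of the 7 genes fell to 13 from the upper 50% of peaks and to 8 within 50 kb, against 31, and those of Kit to 0 and 2, against 4; the median over all genes was then 0, against 2. From the upper 50% Flt3 and Slamf1 also had 0, Cd34 1, Cd27 2 and Csf2rb 4. That cut was made within each replicate, so its limit was highest in replicate 1 (2.10, against 1.06 and 1.37 in replicates 2 and 3). Leaving out 1 replicate gave 31 to 43 for the 7 genes and 3 to 4 for Kit, with an all-gene median of 2 to 4. With the longer list these numbered 41 and 4 (all-gene median 3), with 50% overlap 30 and 3, and with distal over 2 kb 27 and 4 (all-gene median 1). Of the other values, the promoter signals of the 7 genes and the distal counts of the 6 genes besides Kit, 81 stayed within 1 SD (signals) or 1.5 times (counts) and 16 moved further. No paired analysis was possible because there is 1 group and no test.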
